A study of Rattus norvegicus with 2 samples.

Results

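The genes described are 5 cytokine and receptor genes of mast cells and basophils. Il4 and Il13 encode type 2 cytokines, Il3 a haematopoietic cytokine and Il1b an inflammatory cytokine. Il1rl1 encodes ST2, the receptor for interleukin-33. The 5 genes were taken by gene symbol from the deposited table of all transcripts, which lists 15409 symbols. All 5 genes were listed, with 6 transcripts in all, and each reached a normalised count of 1 in at least 1 library. RNA was sequenced from the RBL-2H3 line, rat basophilic leukaemia cells that serve as a model of mast cells, with strand-specific libraries. The treated library came from RBL-2H3 cells given PM2.5 (fine particulate matter) together with IgE and DNP-HSA, an antigen that binds such IgE and so crosslinks its receptor. The other library came from RBL-2H3 cells given normal saline; the labels do not say whether these cells also had IgE and antigen, and they give neither a dose unit nor a time. There was 1 library per group, so no difference below has a replicate check, no test between the conditions was possible, and culture-to-culture spread is not known.

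Crosslinking of IgE receptors makes mast cells and basophils release stored granules and then transcribe cytokine genes, among them Il4, Il13 and Il3. Interleukin-4 and interleukin-13 signal through receptors that share the interleukin-4 receptor alpha chain and activate STAT6, and both drive IgE production and mucus responses in allergy. Interleukin-3 acts through its own alpha chain and the common beta chain encoded by Csf2rb and activates STAT5. Interleukin-33, released by damaged epithelium, acts on mast cells through ST2 and the accessory protein encoded by Il1rap, which hand the signal to MYD88 and the IRAK kinases. Interleukin-1 beta is made as an inactive precursor that caspase-1 cuts to its active form.

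The 4 promoters that matched a RefSeq entry by symbol are shown because Il4 and Il3 were low together in the treated library, Il1b was high and Il1rl1 was close to equal. Each runs 5′ to 3′ from 250 bases before to 50 bases after the RefSeq start site in the GRCr8 rat assembly, and capitals mark GGAAA or its reverse complement TTTCC, the core word of NFAT sites. The windows are chr10:38277500-38277799 on the minus strand for Il4, chr10:38908761-38909060 on the minus strand for Il3, chr9:50203388-50203687 on the plus strand for Il1rl1 and chr3:137036532-137036831 on the minus strand for Il1b. Il13 had no entry.
Il4: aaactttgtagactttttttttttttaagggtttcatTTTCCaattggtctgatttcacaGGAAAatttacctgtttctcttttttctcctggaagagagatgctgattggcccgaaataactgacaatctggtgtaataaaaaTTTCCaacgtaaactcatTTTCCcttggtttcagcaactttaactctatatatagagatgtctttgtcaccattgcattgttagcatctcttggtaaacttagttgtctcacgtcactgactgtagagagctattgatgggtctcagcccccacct
Il3: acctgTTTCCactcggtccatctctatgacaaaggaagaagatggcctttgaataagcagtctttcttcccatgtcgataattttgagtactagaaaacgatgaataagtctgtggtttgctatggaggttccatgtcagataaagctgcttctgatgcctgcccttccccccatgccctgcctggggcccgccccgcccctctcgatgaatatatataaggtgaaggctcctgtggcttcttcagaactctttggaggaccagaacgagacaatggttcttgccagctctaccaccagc
Il1rl1: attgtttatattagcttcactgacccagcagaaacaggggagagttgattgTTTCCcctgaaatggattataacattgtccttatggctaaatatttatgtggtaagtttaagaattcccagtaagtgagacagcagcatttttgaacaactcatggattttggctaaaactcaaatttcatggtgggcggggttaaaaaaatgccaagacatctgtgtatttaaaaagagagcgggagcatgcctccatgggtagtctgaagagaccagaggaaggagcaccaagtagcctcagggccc
Il1b: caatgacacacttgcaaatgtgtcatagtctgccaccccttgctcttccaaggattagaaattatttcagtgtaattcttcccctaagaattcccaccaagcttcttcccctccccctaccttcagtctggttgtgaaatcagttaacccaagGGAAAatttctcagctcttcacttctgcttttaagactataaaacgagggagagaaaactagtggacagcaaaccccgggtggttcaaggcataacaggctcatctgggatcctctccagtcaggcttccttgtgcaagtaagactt

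The Il4 window held 4 NFAT core words, starting at positions -213, -190, -106 and -88 from the start site, and the windows of Il3, Il1rl1 and Il1b held 1 each. Of 33469 rat promoter windows of the same length, 62.7% held at least 1 such word on either strand and 2.9% held at least 4. The GATA word GATAA, which stood in 26.5% of all windows, matched at 2 places in the Il3 window, -174 and -111, and in no other of the 4. The AP-1 word TGANTCA, in 7.33% of all windows, and the STAT5 word TTCNNNGAA, in 8.87%, had no match in the 4 windows. These matches describe letters in a window of 300 bases and do not show binding.

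The treated library held 3964955 reads and the saline library 7279671, so the saline library was 1.84 times as deep. The deposited values are log2 of a normalised count plus 1, and the normalised count is a read count divided by a size factor of its library. Each value was turned back into its read count, and 1 read of the treated library was worth a normalised count of 1.65, and 1 read of the saline library 0.867. Folds are differences of log2 of the normalised count plus 1, treated minus saline. For a gene with more than 1 transcript, the normalised counts of its transcripts were summed first. Each interval is the exact 95% Clopper-Pearson interval for the ratio of the 2 normalised counts without the added 1. It covers counting error only, not spread between cultures. Reads without molecular identifiers are not independent molecules, so the interval may be too narrow even for counting error. Of 14 mast cell markers 11 were listed, while Tpsb2, Tpsab1 and Mcpt2 were not. Kit had 5440 treated and 11946 saline reads. Ms4a2, the beta chain of the IgE receptor, had 1164 and 1283 reads. None of 10 T and B lymphocyte markers was listed, and 5 of 12 macrophage markers were.

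The 3 cytokine genes that lie together on chromosome 10, Il4, Il13 and Il3, were all far lower in the treated library. By the rule of at least a 2-fold difference, 3 of the 5 genes were lower, 1 was higher (Il1b) and 1 was within 2-fold (Il1rl1). Over the 15097 symbols with a normalised count of 1 or more in a library, 19.1% passed this rule as lower in the treated library and 12.1% as higher. Among 3123 symbols with 50 to 200 reads in both libraries together, the band that holds Il4, Il13 and Il3, the shares were 15.3% lower and 10.5% higher. In bulk RNA, fewer cells that express a gene and less RNA per cell cannot be told apart.

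**Figure D1:**
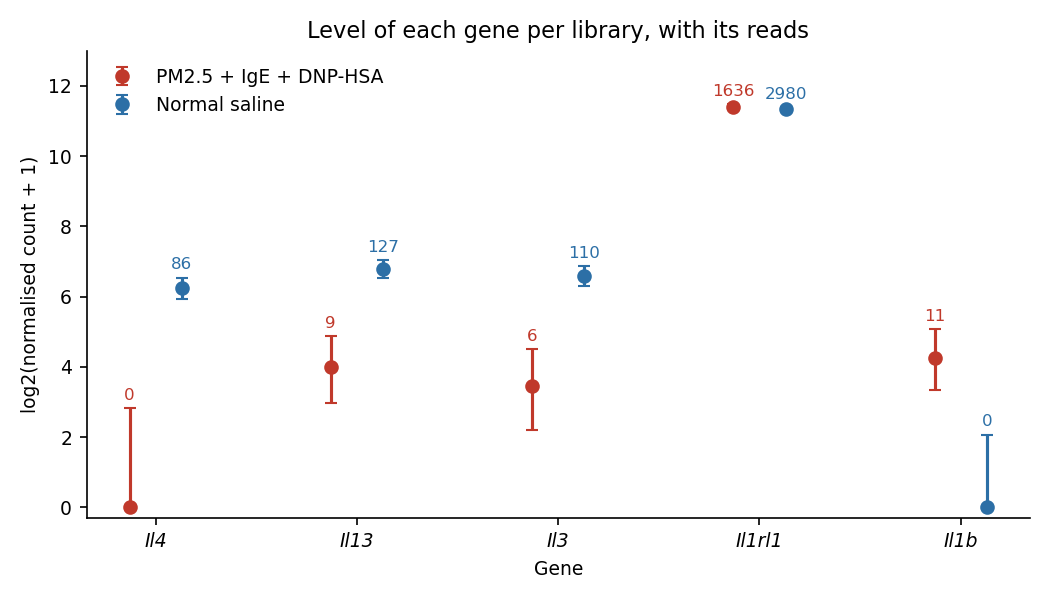
Level of each gene in the PM2.5 plus IgE and DNP-HSA library (red) and the saline library (blue), as log2(normalised count + 1) on the vertical axis, with the read count printed above each point and bars for the exact 95% Poisson interval of that count. Il4, Il13 and Il3 lie lower in the treated library with no overlap of the bars, Il1b lies higher, and Il1rl1 is level with 1636 treated and 2980 saline reads.

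Il4 (ENSRNOG00000007624), the cytokine that switches B cells to IgE, had 0 reads in the treated library and 86 in the saline library. Its normalised count was 0 (Poisson interval 0 to 6.09) in the treated library and 74.6 (59.7 to 92.1) in the saline library. At the saline level, the depth of the treated library would have given 45.2 reads. Taken against a floor of 3 reads, Il4 was at least 15.1-fold lower in the treated library, while the exact limit of the ratio allows a difference as small as 12.0-fold. The transcript was thus not detectable at this depth, which does not show that it was absent. Il4 was 1 of 14 symbols with 0 treated reads and at least as many saline reads, out of 15409.

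Il13 (ENSRNOG00000007652), the effector cytokine of airway mucus and hyperreactivity, had 9 reads in the treated library and 127 in the saline library. Its normalised count was 14.9 (6.80 to 28.2) in the treated library and 110.2 (91.8 to 131) in the saline library. The log2 fold was -2.81, and the ratio without the added 1 was 7.41-fold lower in the treated library (log2 interval -4.05 to -1.92). Equal levels would have given 66.7 reads in the treated library. Unlike Il4, the transcript was still detected there.

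Il3 (ENSRNOG00000026786), a growth factor of mast cells and basophils, had 6 reads in the treated library and 110 in the saline library. Its normalised count was 9.91 (3.64 to 21.6) in the treated library and 95.4 (78.4 to 115) in the saline library, a log2 fold of -3.14. The ratio was 9.63-fold lower in the treated library (log2 interval -4.74 to -2.10), and equal levels would have given 57.8 treated reads. The intervals of Il13 and Il3 overlapped widely, so their reads do not order the 2 differences. Il4's limit of -3.58 lies inside both intervals, but this is not a direct comparison of Il4 with the other 2, which was not made. Among the 3123 symbols of 50 to 200 reads, 9 had a log2 fold as low as that of Il4 or lower, 42 as low as that of Il3 and 57 as low as that of Il13, each gene counted with the rest.

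Il1rl1 (ENSRNOG00000014835) was the best covered of the 5 genes, with 1636 reads in the treated library and 2980 in the saline library. Its normalised count was 2702 (2573 to 2836) in the treated library and 2585 (2493 to 2679) in the saline library. The log2 fold was 0.064, and the interval of -0.024 to 0.15 held 0. The gene had 2 listed transcripts, and the files do not say which of the membrane and soluble forms of ST2 each encodes. ENSRNOT00000020108 held 1297 of the 1636 treated reads and 2442 of the 2980 saline reads, with a log2 fold of 0.016. ENSRNOT00000020144 held 339 treated and 538 saline reads, with a log2 fold of 0.26 (interval 0.063 to 0.46). The second transcript made up 20.7% (exact interval 18.8 to 22.8) of the gene's treated reads and 18.1% (16.7 to 19.5) of its saline reads. These 2 intervals overlap, but overlap does not show equal shares, and the difference in share was not tested. The labels do not state how reads of shared exons were split between the transcripts.

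Il1b (ENSRNOG00000004649) had 11 reads in the treated library and 0 in the saline library, the opposite pattern to Il4. Its normalised count was 18.2 (9.07 to 32.5) in the treated library and 0 (0 to 3.20) in the saline library. The deeper saline library would have given 20.9 reads at the treated level. Against a floor of 3 reads its treated level was at least 6.98-fold higher, and the exact limit allows 4.78-fold. Il1b was 1 of 29 symbols with 0 saline reads and at least as many treated reads.

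Since macrophages are a rich source of interleukin-1 beta, the macrophage markers are given beside it. The 5 listed markers summed to a normalised count of 836 in the treated library and 1520 in the saline library. Csf1r alone made up 472 and 1215 of these sums, so they do not describe the 5 genes as a group. Cd68, a lysosomal macrophage protein, had 0 treated and 19 saline reads, at least 3.33-fold lower against the floor with an exact limit of 2.45-fold, and Csf1r, the receptor of the macrophage growth factor, had 286 and 1401 reads. Lyz2, a lysozyme, went the other way with 80 treated and 57 saline reads (log2 fold 1.40), Cd14 had 117 and 228 (-0.033) and Adgre1 23 and 48 (-0.13). Marco, Mrc1, Cd163, Itgam and the C1q genes were not listed. Both libraries came from the RBL-2H3 line, so reads of these genes are not a measure of macrophage number. The part of these genes in the result for Il1b was not tested.

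**Figure D2:**
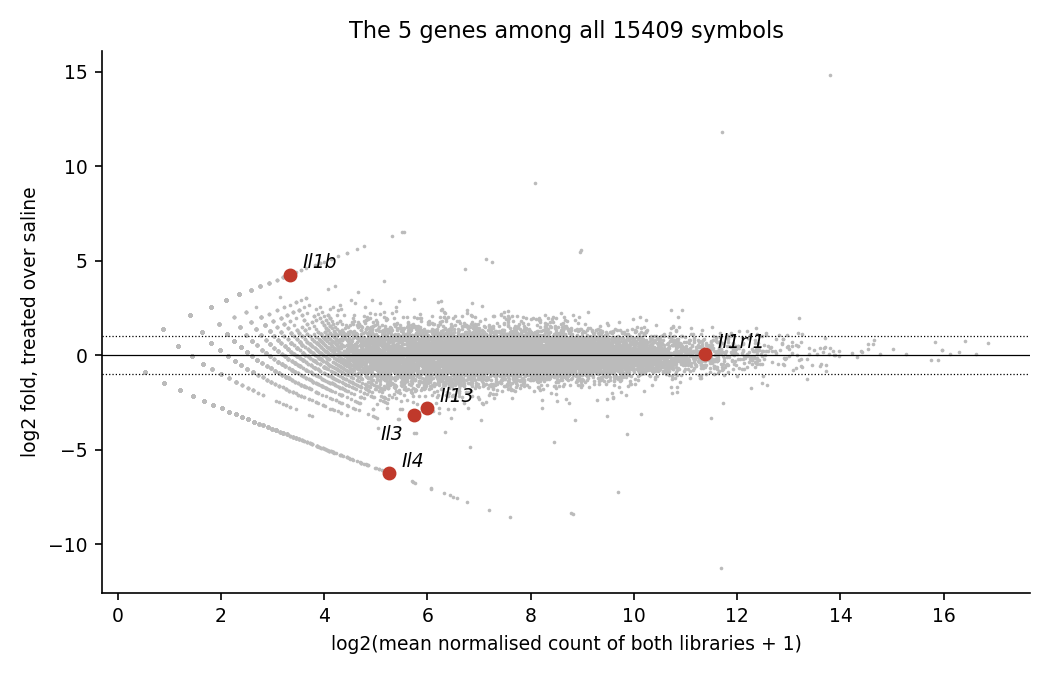
Log2 fold of the treated over the saline library (vertical axis) against the log2 mean normalised count plus 1 of both libraries (horizontal axis) for 15409 symbols (grey), with the 5 genes in red and dotted lines at 2-fold. Il4 and Il1b lie on the lower and upper edge formed by symbols with 0 reads in 1 library, Il13 and Il3 below the main cloud, and Il1rl1 on the zero line.

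Other well-covered genes on the stretch of chromosome 10 that holds Il4, Il13 and Il3 were not low in the treated library. In RefSeq order on GRCr8, 9 other protein-coding genes lie between Il4 and Il3, and with 5 more on each outer side 19 neighbours were examined, of which 9 were listed. The 7 neighbours with at least 50 reads ranged in log2 fold from -0.28 to 1.09, so each stood above the 3 cytokine genes. Kif3a, a kinesin subunit next to Il4, had 88 treated and 126 saline reads (0.41). Rad50, a DNA repair gene that in mice holds a control region of the type 2 cytokine genes and that lies next to Il13, had 137 treated and 140 saline reads and a log2 fold of 0.89 (interval 0.55 to 1.25). Irf1, an interferon-responsive transcription factor, had 140 treated and 125 saline reads and was higher in the treated library at 1.09 (interval 0.73 to 1.45).

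Of the other listed neighbours, Slc22a5, a carnitine transporter, was at -0.28, Sept8 (Septin8 in RefSeq) at 0.57, Fnip1 at 0.82 and Rapgef6 at 0.61. Csf2, the cytokine gene beside Il3 that encodes GM-CSF, had 0 treated and 4 saline reads, and P4ha2, a collagen hydroxylase, 0 and 3, both too few for a fold. Il5, which lies between Rad50 and Irf1, was not listed.

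**Figure D3:**
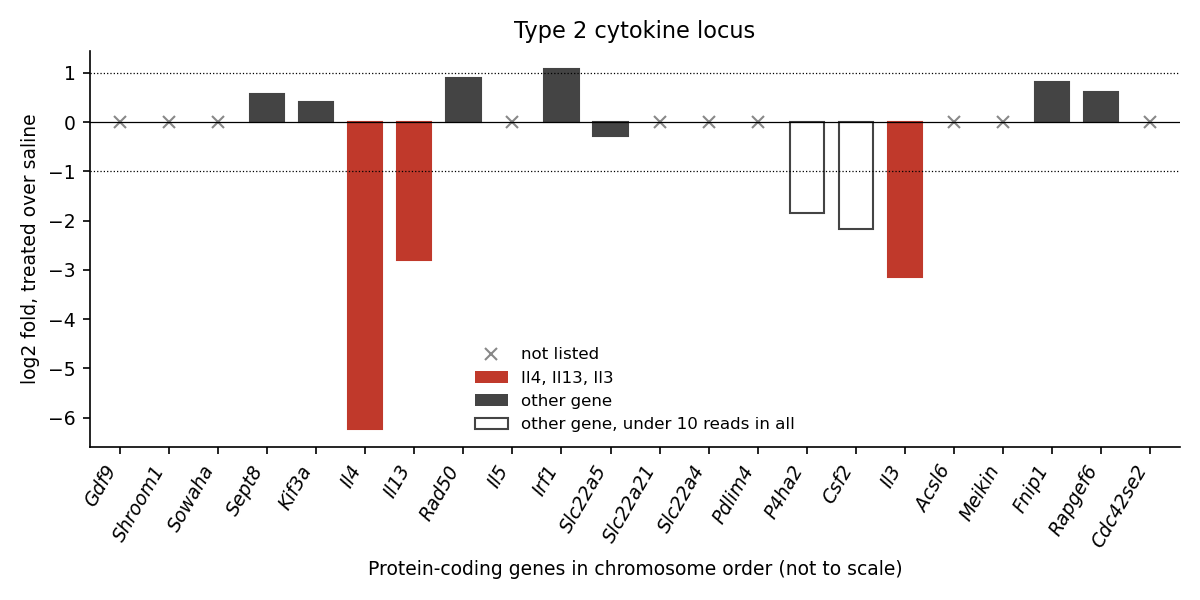
Log2 fold, treated over saline, of normalised counts plus 1 for protein-coding genes in their RefSeq order along rat chromosome 10 (distances not to scale). Red bars are Il4, Il13 and Il3, dark bars other listed genes, open bars genes under 10 reads in all and crosses genes not listed; the dark bars run from -0.28 to 1.09 beside red bars at -6.24, -2.81 and -3.14.

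The other 2 genes lie on other chromosomes. Beside Il1rl1 on chromosome 9 lie the genes of both chains of the interleukin-18 receptor, which differed in direction. Il18r1, the binding chain, had 105 treated and 103 saline reads (0.95, interval 0.55 to 1.36). Il18rap, the accessory chain, had 182 treated and 779 saline reads (-1.17, interval -1.41 to -0.93). Of the 10 coding genes nearest to Il1rl1, 6 were listed, with 1 lower by the rule (Il18rap), 1 higher and 3 below 0. Over all symbols 19.1% were lower and 12.1% higher. The higher gene, Slc9a2, had 8 treated and 0 saline reads, with an exact log2 limit of 1.70. Mfsd9 was at -0.74, Slc9a4 at -0.56 and Map4k4 at 0.15. Around Il1b on chromosome 3, 6 of the 10 nearest coding genes were listed, of which 2 were lower by the rule, 0 were higher and 5 lay below 0. All 6 had at least 50 reads. Of all symbols with that many reads 9.05% were lower and 7.02% higher, and their median log2 fold was -0.051. The 6 neighbours were Polr1b, an RNA polymerase I subunit (-1.66, 82 treated and 497 saline reads), Sirpa, an inhibitory receptor of myeloid cells (-1.07, 28 and 113), Slc20a1, a phosphate transporter (-0.97), Chchd5 (-0.58), Stk35 (-0.13) and, above 0, Ckap2l, a spindle protein (0.47). Il1a, which adjoins Il1b, was not listed.

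Receptors for the low cytokines were read in both libraries, and the 2 lowest genes of their pathway list were feedback inhibitors. In the list of IL-4, IL-13 and IL-3 receptors and JAK-STAT genes, 18 of 20 were listed; by the 2-fold rule 0 were higher in the treated library, 5 lower and 13 within 2-fold, with a median log2 fold of -0.42 beside -0.070 over all symbols. The 5 lower genes are 27.8% of the list, beside the 19.1% of all symbols. With at least 50 reads in all they are 5 of 17 genes (29.4%), beside 9.05% of the 10117 symbols with that many reads. The 5 lower genes were Socs1, Cish, Irs2, Tyk2 and Stat6. This list and those below were chosen with earlier results of these data known. Their shares describe the lists and are no test of enrichment. Socs1, an inhibitor of JAK kinases that cytokines induce, had 16 treated and 221 saline reads (-2.81, interval -3.69 to -2.13). Cish, a feedback inhibitor induced through STAT5, had 80 treated and 623 saline reads (-2.02, interval -2.39 to -1.69). Irs2, an adaptor that the interleukin-4 receptor engages, had 46 treated and 268 saline reads (-1.60).

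Stat6, the factor downstream of interleukin-4 and interleukin-13, had 179 treated and 745 saline reads (-1.13, interval -1.37 to -0.89), and the kinase Tyk2 had 120 and 603 (-1.40). Receptor chains differed less. The interleukin-4 receptor alpha chain Il4r was at -0.70 (530 treated and 1644 saline reads), the common beta chain Csf2rb at -0.72 (1430 and 4482), the common gamma chain Il2rg at 0.57 (344 and 441) and Il3ra at -0.055 (96 and 190). The abundant Stat3 and Jak1 were at -0.21 and 0.29. Jak2 was the highest of the list at 0.92 (310 treated and 311 saline reads, interval 0.69 to 1.16), and Stat5a and Stat5b were at -0.61 and -0.45. In the whole list 12 genes lay below 0 and 6 above. Socs3, another feedback inhibitor, was at 0.52 (172 treated and 228 saline reads), apart from Socs1 and Cish. Il13ra1 and Il13ra2 were not listed.

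Most listed genes that carry the interleukin-33 signal stayed within 2-fold, as Il1rl1 did. Of 17 genes in the list of IL-33 and IL-1 receptors and signal transduction, 15 were listed; 0 were at least 2-fold higher, 1 (Il18rap) at least 2-fold lower and 14 within 2-fold, with a median of -0.15. With at least 50 reads 1 of 14 genes (7.14%) was lower, beside 9.05% of symbols with that many reads, a share near the background. Il1rap, the partner chain of ST2, was at 0.34 (115 treated and 173 saline reads) and the adaptor Myd88 at -0.17 (284 and 609). The kinase Irak1 was at -0.80 (231 and 768), and Tab2 and Tollip, an adaptor of the TAK1 kinase and an inhibitor of IRAK1, at -0.15 and -0.0016. Il1r1 and Il1r2 were not listed.

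Among IL-1 family ligands and their processing genes, 8 of 12 were listed; 3 were at least 2-fold higher, 0 at least 2-fold lower and 5 within 2-fold, with a median of 0.073. The 3 higher genes, Il1b, Casp1 and Il1rn, are 37.5% of the list beside 12.1% of all symbols, and the list holds Il1b itself. Casp1, the protease that activates the precursor, had 6 treated and 0 saline reads and was at least 3.81-fold higher against the floor, with an exact limit of 2.24-fold. Il1rn, the natural antagonist of the interleukin-1 receptor, was better covered, with 88 treated and 64 saline reads (1.37, interval 0.91 to 1.88). Il18 was at 0.26, the sensors Nlrp1a and Nlrp3 at -0.11 and -0.21, and the adaptor Pycard at -0.80 (30 treated and 100 saline reads). With a minimum of 50 reads in all, 1 of the 3 higher genes was left, Il1rn, which is 1 of 5 genes (20%), beside 7.02% of symbols with that many reads.

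Listed transcription factors known to act on the type 2 cytokine genes were read in both libraries. The fewest treated reads were those of Cebpa (23 treated and 72 saline) and Irf4 (24 and 70). In the list of such factors and of locus neighbours, 20 of 22 were listed; 1 (Irf1) was at least 2-fold higher, 3 at least 2-fold lower and 16 within 2-fold, with a median of -0.34. All 20 had at least 50 reads in all. The 3 lower genes are 15% of them and the 1 higher gene 5%, beside 9.05% and 7.02% of symbols with that many reads. Gata2, a factor that mouse mast cells need for their identity, had 3879 treated and 10086 saline reads (-0.45), Gata1 was at -0.11 and Gata3 at -0.23. The NFAT genes did not share a direction. Nfatc1 was at -0.996 (346 treated and 1315 saline reads, interval -1.17 to -0.82), just short of the 2-fold rule, Nfatc2 at -0.79 (139 and 460) and Nfatc3 at 0.23 (673 and 1091). The 3 lower genes were Rara, a retinoic acid receptor, at -1.26 (180 and 825), Runx3 at -1.19 (95 and 413) and Runx1 at -1.04 (170 and 665), both RUNX genes being factors of blood lineages. Of the 11 mast cell markers listed, 1 (Cpa3) was at least 2-fold higher and 2 lower (Hdc and Mrgprx2, which had 0 treated and 5 saline reads), shares of 9.09% and 18.2% that lie near the 12.1% and 19.1% of all symbols. With its 0 treated reads set to the floor of 3, Mrgprx2 no longer passed the rule. The median log2 fold of the 11 markers was 0.44, with 7 above 0 and 4 below. Their normalised counts summed to 26615 in treated cells and 27815 in saline cells. Kit (8985 treated and 10361 saline) and Gata2 (6407 and 8748) were the largest parts of these sums, which therefore say little about the other markers.

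**Figure D4:**
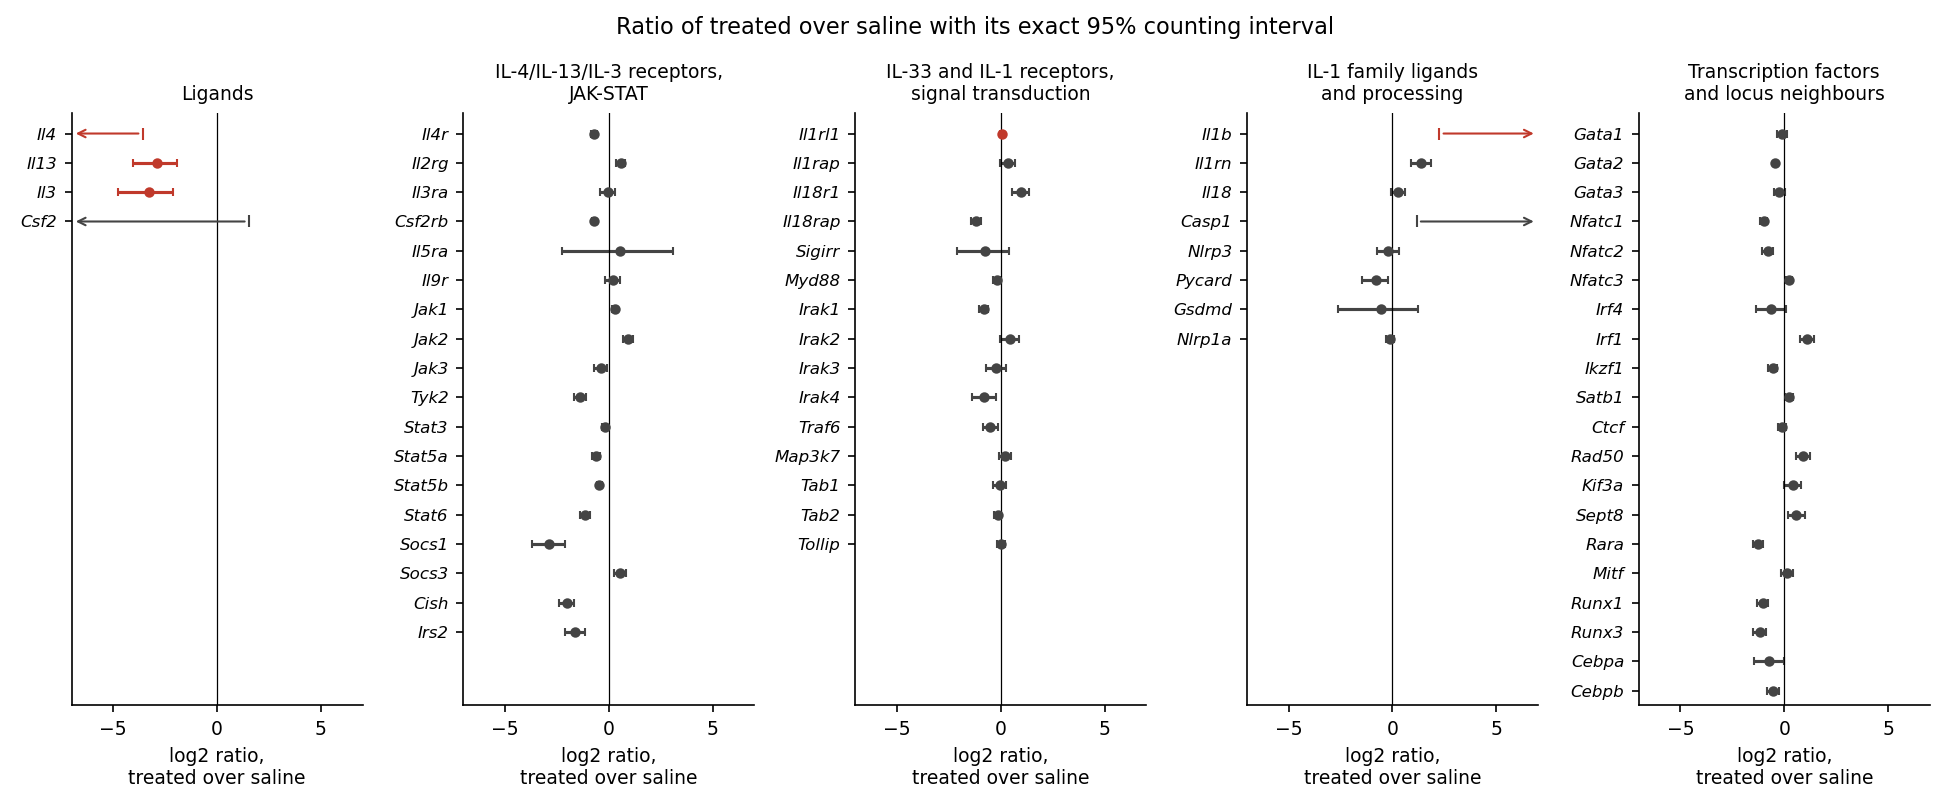
Log2 ratio of the treated over the saline library without an added count (horizontal axis) for each listed gene of the 5 pathway lists, with its exact 95% counting interval; arrows start at the exact limit of genes with 0 reads in 1 library. The 5 genes described are in red: Il4, Il13 and Il3 lie left of 0, Il1rl1 at 0 and Il1b right of 0, while the interval of Csf2 (0 treated and 4 saline reads) crosses 0.

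The list of type 2 and mast cell ligands held 12 genes, of which 4 were listed. All 4, Il4, Il13, Il3 and Csf2, were at least 2-fold lower on counts plus 1, with a median of -2.98, but 3 of them are the genes described above and Csf2 came short of 2-fold against the floor. Il5, Il9, Il10, Il31, Il6, Il25, Tslp and Il33 were not listed. Over all 5 lists together, 65 of 82 genes were listed; by the 2-fold rule 4 were higher in treated cells and 13 lower, which is 6.15% and 20%, beside 12.1% and 19.1% of all symbols. Of the 59 genes with at least 50 reads, 2 were higher (3.39%) and 12 lower (20.3%), beside 7.02% and 9.05% of symbols with that many reads. The 12 include Il4, Il13 and Il3, around which the lists were built with earlier results of these data known. The shares of the lists are therefore no test of enrichment.

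The symbols outside the lists with a log2 fold nearest to that of Il13, among 3456 with between 0.5 and 2 times its reads, were Ptprb, Rn50_8_0646.1, Tbkbp1 and Acsbg1. Ptprb, a receptor tyrosine phosphatase, had 5 treated and 74 saline reads (-2.82), Rn50_8_0646.1 had 6 and 88 (-2.83), Tbkbp1, a binding partner of the kinase TBK1, had 12 and 170 (-2.83) and Acsbg1, an acyl-CoA synthetase, had 11 and 150 (-2.77). Likeness is here that of 1 difference between 2 libraries.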

How the data were processed

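Per the labels' protocols, Tripure was used to extract total RNA, from which TruSeq libraries were made with strand kept. Per the submitters' processing notes, FastQC, STAR 2.5, Cuffnorm and DESeq 1.22.1 were used, with no role or order given; how genome and genes were chosen is not stated there. What the authors deposited are log2 values per transcript, found to be log2 of a count divided by a size factor (0.605 treated, 1.15 saline), plus 1: 100% of the values in each library gave whole reads within 0.0001 reads. The authors' deposited p-values per transcript were used as listed. A further 4 columns of per-sample values were not used.

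Transcripts were summed by symbol; 1276 without a symbol were left out. With 1 library per group no test was run, and a difference was counted from a log2 fold of 1 upward or -1 downward where a library reached a normalised count of 1. Genes with 0 reads were set against a floor of 3 reads. The members and the 8 gene lists (116 genes, 79 listed) were chosen with earlier results of these data known. Named genes were the members, the 3 largest differences and 3 highest means per list and the 4 symbols nearest to Il13; others, and the neighbours on the chromosome, were chosen afterwards. Promoters are RefSeq's (GRCr8), found for 4 of 5 members. Alternatives were other pseudocounts, 3 scalings, the highest transcript alone and 2 read minimums. Levels were not compared between genes, since no transcript lengths were used. Poisson counts were simulated for this comparison over 15409 symbols, with changed symbols at a mean of 20 to 100. Of these, 93% of those set to a log2 fold of -1.5 and 100% of those at -3 passed the rule. Among symbols in that range of means, 96.4% of intervals held the true ratio. An exact interval reaches its level on Poisson counts by construction, so this share checks the computation only. Simulated counts hold no spread between cultures. Computations ran in Python 3.11.15 with SciPy 1.17.1, NumPy 2.4.6, pandas 2.3.3 and, for figures, Matplotlib 3.10.9.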

Additional observations from a re-analysis of the deposited data

How the results depend on the processing

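All 30 values of the 5 genes under the 6 alternatives for a single gene kept their direction. For many of them this was fixed in advance. Another pseudocount cannot turn a direction, and the highest transcript alone repeats the main value for the 4 genes with 1 transcript. Only Il1rl1, at 0.064, lay near the size of the shifts from the scalings. Il13 ranged from -2.86 to -2.54, Il3 from -3.20 to -2.75, Il1rl1 from 0.01 to 0.08 and Il4 from -7.23 to -3.99, the Il4 range following from the added count. Il1b was at 2.21 with a pseudocount of 5, just under its exact limit of 2.26, since 0 saline reads leave the fold to the added count. Over the 5 pathway lists the 13 lower genes became 12 to 14; the 4 higher genes became 7 with the highest transcript alone, where the cause was not tested, and 2 with a minimum of 50 reads, where fewer genes were counted. The 3 other scalings shifted all folds by -0.06 to 0.01. Depth leaves 1-sided limits for genes with 0 reads in 1 library (Il4, Il1b, Casp1, Cd68, Csf2, P4ha2, Mrgprx2 and Slc9a2). Spread between cultures is not known for any gene.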

Other observations

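The authors' deposited table gives p-values for single transcripts that do not follow the size of these differences. The authors' deposited table lists p = 0.0939 for Il13 and p = 0.0969 for Il3, and p = 0.642 for Il4, whose fold is the largest of the 3. For the other genes the authors' deposited table lists p = 0.395 for Il1b, and p = 0.996 and p = 0.570 for the 2 Il1rl1 transcripts. The adjusted p in the authors' deposited table was 0.920 for Il4, Il13, Il3, Il1b and ENSRNOT00000020144, and that value is the lowest of all transcripts. None of the 6 transcripts stands among the 57 that the authors selected, whose highest p in the authors' deposited table is 0.0499. The labels do not name the program behind these p-values.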
